A study of Neurospora crassa with 5 samples.

Results

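The 200 protein-coding genes described here were the steadiest transcripts of Neurospora crassa crossing cultures. They were chosen by their measured values. Among the 3429 genes with a mean of at least 50 CPM (a gene's counts scaled to a common library size, here with TMM factors) over 5 libraries, they had the lowest standard deviation (SD) of log2 CPM. They made up 5.83% of those genes. The files held 10591 gene rows, of which 8638 passed a filter on low counts, all 200 among them. The cultures were of strain FGSC#4564 of this filamentous fungus, whose genotype is given as mat a[m1]s-3B cyh-1. It is a mutant in the mating-type gene mat 1-2-1 and carries cyh-1, a cycloheximide resistance marker, and both groups are of it. The crossed group held 3 libraries (replicates 1, 2 and 3), taken 2 h after conidia, the asexual spores, of wild-type FGSC#2489 were put on protoperithecia, the young female fruiting bodies. The uncrossed group held 2 libraries (replicates 1 and 3) of 6-day cultures of that strain, sampled at time 0 with no conidia added. A plate was a replicate. The labels give protoperithecia as the source, and hyphae or spores taken along with them cannot be told apart in bulk RNA. All cultures were of 1 mutant strain, and crossed libraries may also hold RNA of the added wild-type conidia. Libraries of the wild-type strain were not analysed here.

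Steadily expressed genes are used as a scale in expression studies: the amount of another transcript is given relative to theirs, and genes for actin, tubulin, histones, ubiquitin or glycolytic enzymes have often been taken for that purpose in fungi. Such genes commonly belong to machines that every growing cell needs. The vacuolar ATPase pumps protons into the vacuole and other compartments, the proteasome breaks down proteins tagged with ubiquitin, and histones package DNA.

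The libraries held 31063642 to 39592703 counts in the crossed group, against 25817200 and 39639683 in the uncrossed group. Ribosomal RNA genes took 19.3 to 34.0% of the counts in crossed libraries, against 14.3 and 21.3% in uncrossed libraries. The summed level of 5 markers of conidia (eas, con-13, con-10, con-8, con-6) was 35718, 64029 and 59585 CPM in crossed replicates 1, 2 and 3, against 15162 and 30531 CPM in uncrossed replicates 1 and 3. None of these markers was at 0 in any library, and none was among the steadiest genes (SD of log2 CPM 0.337 to 1.68). Their part in the results below was not tested. In bulk RNA of this kind, fewer cells of a type and less RNA per cell cannot be told apart. Uncrossed replicate 1 stood apart from the other libraries, being the farthest from the gene's own mean in 3994 of the 8638 genes. Crossed replicates 2 and 3 were the most alike pair (chi-square of their counts 7.43 per degree of freedom, against 78.5 to 764 for the other pairs), which is still above sampling noise.

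The order of genes below is that of the measured SD, which 5 libraries set only loosely. First came NCU01644, which has no symbol beyond its locus tag. It had 92.3, 92.2 and 91.3 CPM in crossed replicates 1, 2 and 3, against 90.8 and 91.8 CPM in uncrossed replicates 1 and 3. Its 5 values lay within 1.02-fold of each other (SD of log2 CPM 0.0101), and the groups overlapped. NCU16399 came next, with 75.4, 74.5 and 76.4 CPM in crossed libraries, against 75.8 and 74.9 CPM in uncrossed libraries (SD of log2 CPM 0.0149). The third was vma-3 (NCU01332), which codes for the proteolipid subunit that forms most of the rotating membrane ring of the vacuolar ATPase. It had 426, 425 and 424 CPM in crossed libraries, against 439 and 423 CPM in uncrossed libraries. Only uncrossed replicate 1 lay above the narrow band of the other 4 libraries. The fourth was rpt-5 (NCU04414), an ATPase of the proteasome's regulatory particle, with 165, 162 and 169 CPM in crossed libraries, against 167 and 166 CPM in uncrossed libraries. Histone H2A (hH2A, NCU02437) was the seventh and by far more abundant, at 1443, 1444 and 1392 CPM in crossed libraries, against 1400.4 and 1424 CPM in uncrossed libraries. The tenth was crf4-1 (NCU03875), which codes for a chromatin remodelling factor and had 130.4, 126 and 127 CPM in crossed libraries, against 124 and 128 CPM in uncrossed libraries. NCU00918, NCU06259, NCU06290 and NCU04048, which carry no other symbol, completed the first 10, with SDs of log2 CPM of 0.0229 to 0.0267.

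Over all 200 genes the SD of log2 CPM had a median of 0.0505 (0.0101 to 0.0620), against 0.189 (0.0621 to 2.55) in the other 3229 genes of at least 50 CPM. In linear terms the highest library lay 1.09-fold above the lowest in the median steady gene and at most 1.12-fold above it. In the other genes that median was 1.37-fold. Counting error alone would give the steady genes a median SD of 0.0264, if each count were an independent read. Their observed SD was 1.90 times that value in the median gene and below it in 11 genes, NCU01644 among them. The genes were picked for low values of the observed SD, and the counts may not be independent reads. Why the SD of these 11 fell below counting error was not tested. In the other genes the median ratio of the SD to counting error was 8.14. No ratio below 1 was possible there, as their lowest SD (0.0621) was above their highest counting error (0.0576). The limit of the choice was not a natural gap. The last genes inside it, NCU02561, NCU03911, NCU08331, NCU08998 and NCU06959, had SDs of 0.0615 to 0.0620. The first outside were gna-1 (NCU06493), which codes for a G protein alpha subunit, NCU10036, NCU04459, NCU09721 and NCU09560, with SDs of 0.0621 to 0.0625.

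**Figure D1:**
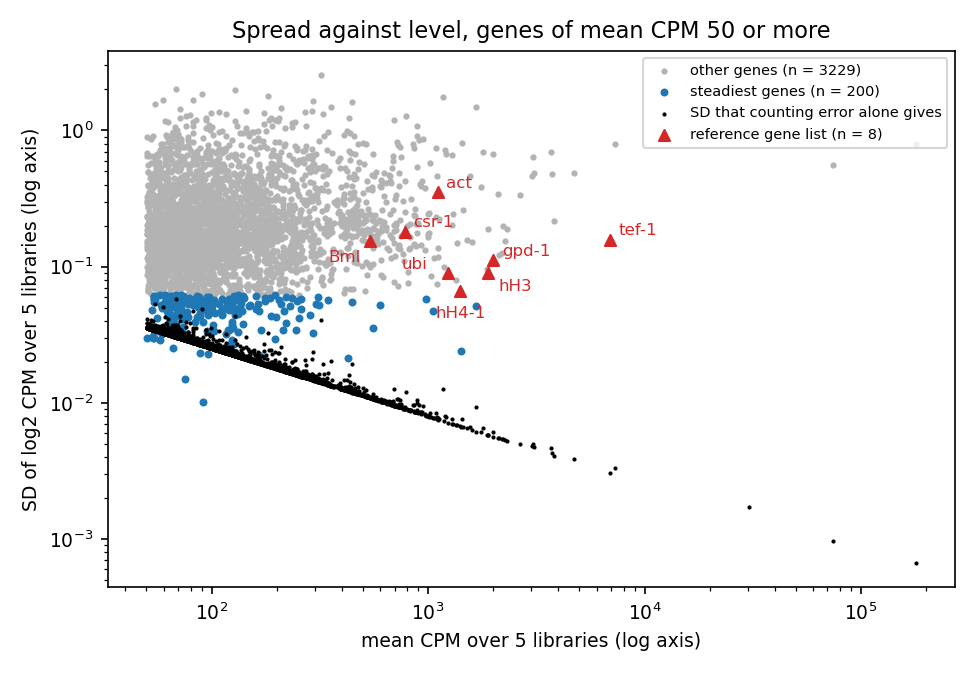
SD of log2 CPM over the 5 libraries (vertical, log axis) against the mean CPM (horizontal, log axis) for the 200 steadiest genes (blue), the other 3229 genes of at least 50 CPM (grey) and 8 genes often taken as references (red triangles, named), with the SD that counting error alone gives each gene in black. The blue points lie above the counting error or, for 11 genes, below it, with the widest gap among the most abundant, and none of the red triangles is among them.

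Of the 200 genes, 45 (22.5%) carry a symbol other than the locus tag, against 21.1% of the other 3229 genes, and the roles below rest on these. Of all 3429 genes, 5.83% were among the 200, a share to set beside each list's count below. Roles without a list, such as signalling or RNA decay, were read off the members' symbols. Genes of those roles outside the 200 were not counted, so their presence does not set such roles apart. The vacuolar ATPase had the most members among the listed machines. All 14 of its listed genes were above 50 CPM, 5 of the 14 (35.7%) were among the steadiest 200, and all 14 had an SD under the median of the 3429 genes (0.179). After vma-3 these were vma-5 (NCU09897), vma-16 (NCU09747), vph-1 (NCU03463) and vma-13 (NCU02746). The gene vma-16 codes for another proteolipid of the ring and had 99.4, 96.6 and 91.7 CPM in crossed libraries, against 89.8 and 94.3 CPM in uncrossed libraries. The membrane subunit next to the ring is encoded by vph-1, which had 186, 174 and 174 CPM in crossed libraries, against 166 and 178 CPM in uncrossed libraries. The stalk subunits vma-5 and vma-13 had SDs of 0.0503 and 0.0589. In vma-13 the groups did not overlap, with 134, 129 and 131 CPM in crossed libraries, against 142 and 139 CPM in uncrossed libraries. The least steady subunit gene was vma-1 (NCU01207, SD 0.157), for the catalytic subunit of the pump. It had 281, 229 and 235 CPM in crossed libraries, against 282 and 285 CPM in uncrossed libraries, so that crossed replicates 2 and 3 were low. Crossed replicate 1 lay just under the uncrossed values, and the groups did not overlap.

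The proteasome was less uniform. Of 30 listed genes above 50 CPM, 3 (10%) were among the steadiest, rpt-5, rpt-4 (NCU07367) and rpn-12 (NCU10067), all of the regulatory particle. The ATPase gene rpt-4 had 124, 123 and 122 CPM in crossed libraries, against 130.3 and 125 CPM in uncrossed libraries. The lid gene rpn-12 had 117, 123 and 128 CPM in crossed libraries, against 124 and 128 CPM in uncrossed libraries. The list's median SD was 0.174. Of its 30 fitted log2 fold changes of crossed over uncrossed, 29 were below 0 (median -0.23). In edgeR's test 7 genes were lower at an unadjusted p under 0.05, where 11% of all tested genes were, and 0 at an adjusted one. Uncrossed replicate 1 was the highest library in 27 of the 30, and against uncrossed replicate 3 alone the crossed mean was lower in 28, with a median log2 ratio of -0.098. None of its pca and pcb genes, which code for the catalytic core, was among the 200, and the steadiest of these was pcb-6 (SD 0.0720). The widest spread in the list was that of rpn-4 (NCU01640, SD 0.704), whose namesake in budding yeast is not a subunit but the transcription factor of proteasome genes. It had 82.6, 169.9 and 164 CPM in crossed libraries, against 53.1 and 107.0 CPM in uncrossed libraries.

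Of 8 histone genes above 50 CPM, hH2A and hH2B were among the 200 (25%). The gene hH2B (NCU02435) had 1703, 1698 and 1696 CPM in crossed libraries, against 1568 and 1697 CPM in uncrossed libraries, so that uncrossed replicate 1 alone was low. Beside them, hH4-1 (SD 0.0663) and hH3 (SD 0.0904) were close but outside. Among the 45, genes that act on chromatin or transcription were crf4-1, crf8-1 (NCU07556, another remodelling factor), ngf-1 (NCU10847, the GCN5-like histone acetyltransferase), cac-2 (NCU08357, a subunit of the chromatin assembly factor), cul-4 (NCU00272, a cullin that also serves heterochromatin formation), rco-1 (NCU06205, a Tup1-like corepressor) and aab-1 (NCU00116, a subunit of the CCAAT-binding complex). Their SDs ran from 0.0270 to 0.0558. The corepressor gene rco-1 had 260.2, 247 and 246 CPM in crossed libraries, against 255 and 262 CPM in uncrossed libraries. The gene aab-1 had 138, 136 and 145 CPM in crossed libraries, against 137 and 142 CPM in uncrossed libraries. The groups overlapped in both. In ngf-1 and cul-4 they did not, with crossed values of 88.8 to 95.2 and 70.3 to 74.1 CPM, against 86.4 and 88.2 CPM and 68.4 and 70.1 CPM in uncrossed libraries.

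Signalling genes among the 200 included regulators of kinases and phosphatases. The regulatory B subunit of protein phosphatase 2A, rgb-1 (NCU09377), had 293, 293 and 300.4 CPM in crossed libraries, against 282 and 295 CPM in uncrossed libraries. The calcineurin regulatory subunit cnb-1 (NCU03833) had 195.5, 195.8 and 192.5 CPM in crossed libraries, against 207.8 and 197.1 CPM in uncrossed libraries. The groups did not overlap for cnb-1. The phosphotransfer gene hpt-1 (NCU01489) relays signals from histidine kinases, and nrc-1 (NCU06182) is the first kinase of the cascade used in cell fusion and pheromone response. Their SDs were 0.0334 and 0.0476. In nrc-1, crossed libraries had 111, 109 and 110.4 CPM, against 105 and 115 CPM in uncrossed libraries, so that the uncrossed values enclosed the crossed ones. Protein kinase C (pkc, NCU06544) and the serine/threonine kinase stk-48 (NCU06760) had SDs of 0.0556 and 0.0472. On the list of such kinases, stk-48 was 1 member among 36 genes above 50 CPM.

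Genes of the circadian oscillator's protein turnover, of RNA decay and of DNA repair were present as well. The casein kinase II regulatory subunit ckb-1 (NCU05485) and the F-box protein fwd-1 (NCU04540), both known to act on the clock protein FRQ, had SDs of 0.0596 and 0.0599. The F-box partner scon-3 (NCU08991), an SKP1 homologue, had 471, 452 and 451 CPM in crossed libraries, against 435 and 427 CPM in uncrossed libraries, and its groups did not overlap. The nonsense-mediated decay helicase prd-6 (NCU04242) had 145.0, 140.8 and 145.0 CPM in crossed libraries, against 131 and 138 CPM in uncrossed libraries, also without overlap. The deadenylase gene ccr4 (NCU07779) had an SD of 0.0612. Of 10 DNA repair genes above 50 CPM, 2 (20%) were among the steadiest. These were uvs-6 (NCU00901), the RAD50 homologue, and mus-8 (NCU09731), the RAD6 homologue, with SDs of 0.0339 and 0.0527.

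In metabolism and the cell surface, the glycolytic enzyme fructose-bisphosphate aldolase (fba, NCU07807) had 1013, 1027 and 1069 CPM in crossed libraries, against 1101 and 1047 CPM in uncrossed libraries. The chitin synthase gene chs-3 (NCU04251) had 136, 131 and 135 CPM in crossed libraries, against 128 and 134 CPM in uncrossed libraries. Glutamine synthetase (gln-1, NCU06724) had an SD of 0.0562 and the GTPase gene ypt-1 (NCU08477), which serves traffic from the endoplasmic reticulum to the Golgi, 0.0468. The gene gh76-7 (NCU03770), also called dfg5, acts in linking proteins to the cell wall and had an SD of 0.0515. For arginine, arg-14 (NCU07682), the acetylglutamate synthase, was the sole member among 39 amino acid synthesis genes above 50 CPM (2.56%). The symbols emp-1, eat-2, cdc15, gh2-3, pkr1, pold-1, rpa-3 and vad-3 were also among the 45, with SDs of 0.0319 to 0.0601.

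**Figure D2:**
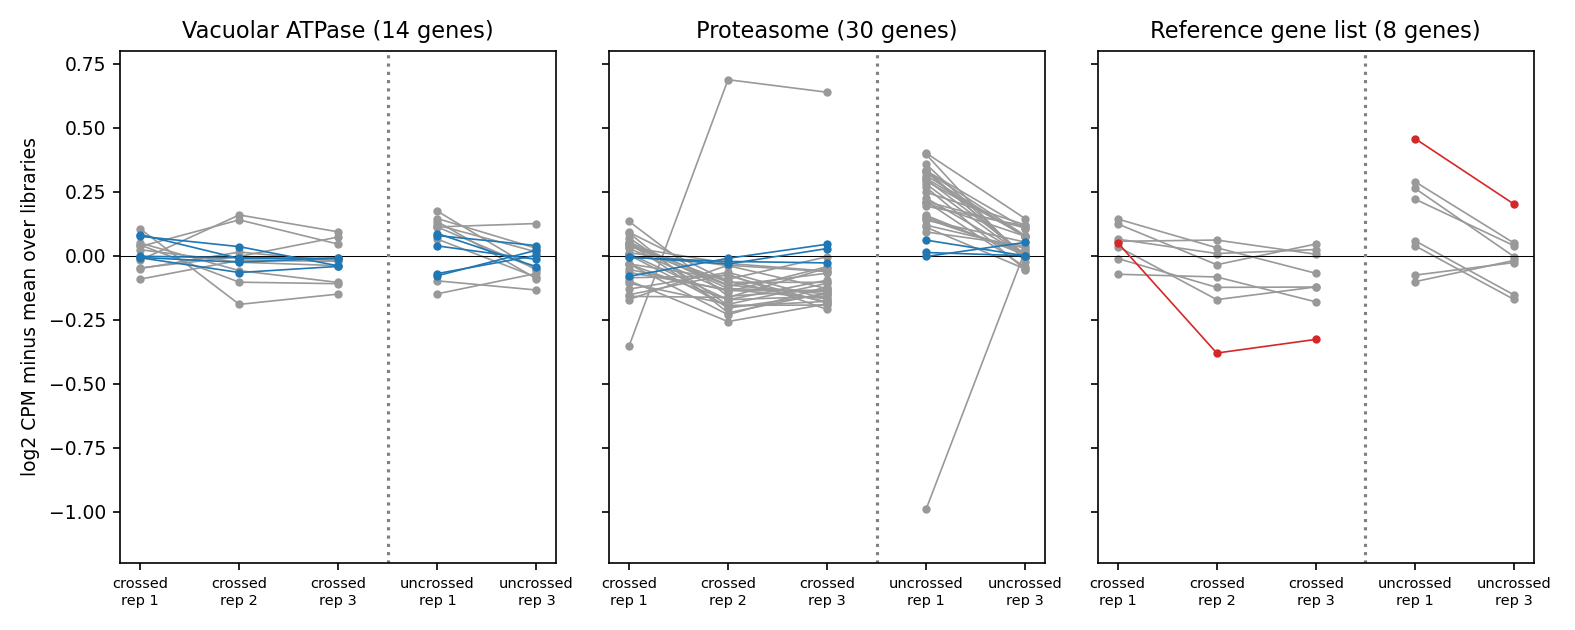
Log2 CPM minus the gene's mean over the 5 libraries (vertical) by library (horizontal, crossed libraries first) for the vacuolar ATPase, the proteasome and the reference gene list, each line being 1 gene. Steadiest genes are blue in the first 2 panels, act is red in the third and all other genes are grey; the vacuolar ATPase lines stay within a narrow band, and act is low in crossed replicates 2 and 3.

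Other lists of housekeeping genes held few or no members, but only 5.83% of all 3429 genes were members. In lists this short 0 or 1 is near that share, so the counts below do not set the lists apart. Of the 30 genes of respiratory complex I, all above 50 CPM, 1 was among the steadiest, nuo10.6 (NCU09002), with 120.6, 121.8 and 112 CPM in crossed libraries, against 123 and 115 CPM in uncrossed libraries. The median SD of that list was 0.208. There were 0 members among 10 cytosolic ribosomal protein genes (median SD 0.209), 14 genes of mitochondrial import (0.215), 3 of the mitochondrial ATP synthase (0.210), 2 of cytochrome c oxidase (0.222), 3 translation factors (0.183), 2 aminoacyl-tRNA synthetases (0.179), 5 of dynein and dynactin (0.158), 2 kinesins (0.177), 5 of the COP9 signalosome (0.159) and 1 autophagy gene (0.0971). In the complex I and ribosomal protein lists, all 30 and all 10 fitted log2 fold changes of crossed over uncrossed were below 0, with medians of -0.31 and -0.31. For all genes tested the median was 0.00. Uncrossed replicate 1, which stood apart, was the highest library in 29 of the 30 and 9 of the 10. Against uncrossed replicate 3 alone, a comparison chosen after seeing the data, the crossed mean was lower in 28 of the 30 and 8 of the 10, with median log2 ratios of -0.17 and -0.21. The mitochondrial import list ran the other way, with 15 of its 19 tested genes above 0 and a median of 0.12. By edgeR's quasi-likelihood fit, 0 genes of these 3 lists had a Benjamini-Hochberg adjusted p under 0.05, and 10 of the 30, 3 of the 10 and 1 of the 19 were lower at an unadjusted p under 0.05. Across all 8638 tested genes, 10.3% were higher and 11% lower at that level (890 and 952 genes). With plain library sizes these numbers were 371 and 1265.

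The 8 genes on the reference list had a median SD of 0.133, and 6 of the 8 had an SD under the median of the 3429 genes (0.179). None of the 8 was among the 200, where 5.83% of the 3429 genes were, so 0 of 8 says little. The nearest was hH4-1 (NCU01634), which was 242nd of the 3429 genes in order of SD. It had 1461, 1466 and 1410.5 CPM in crossed libraries, against 1309 and 1387 CPM in uncrossed libraries. The ubiquitin gene ubi (NCU05995) was 494th, hH3 (NCU01635) 510th and gpd-1 (NCU01528), the glyceraldehyde-3-phosphate dehydrogenase, 796th. Beta-tubulin (Bml, NCU04054), the elongation factor tef-1 (NCU02003) and the cyclophilin csr-1 (NCU00726) followed as 1424th, 1461st and 1729th. Actin (act, NCU04173) was 2775th, with 1123, 833 and 864 CPM in crossed libraries, against 1489 and 1247 CPM in uncrossed libraries. All crossed values of act lay below both uncrossed values. For act, edgeR's quasi-likelihood fit gave a log2 fold change of -0.54 (SE 0.19), an unadjusted p of 0.0304 and an adjusted p of 0.201, so the difference did not pass the threshold over all genes. The other 7 had unadjusted p between 0.0813 and 0.596 in that test. By level, 113 of the 1695 genes of 50 to 100 CPM (6.67%) were among the 200, 5.73% of those of 100 to 200 CPM, 4.41% of those of 200 to 500 CPM, and 6 of the 211 genes of at least 500 CPM (2.84%).

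The contrast of crossed with uncrossed libraries was part of the spread that chose the genes, so it is given as a description and supports nothing. In edgeR's test 0 of the 200 had an adjusted p under 0.05, where 0.0463% of all tested genes did. At an unadjusted p under 0.05 there were 0 of 200, against 21.3% of all tested genes, and DESeq2 called 0 of 200, against 11.8%. Fitted log2 fold changes ran from -0.10 to 0.11, with a median of 0.00 and 108 above 0. Crossed and uncrossed values were without overlap in 58 of the 200 (29%), against 41.9% of all tested genes. In 33 of these the crossed libraries were above (21.3% of all tested genes) and in 25 below (20.6%). The gene with the smallest p was NCU00880, with 100.2, 101.3 and 98.9 CPM in crossed libraries, against 92.0 and 94.2 CPM in uncrossed libraries. Its log2 fold change of 0.11 (SE 0.08) had an unadjusted p of 0.258 by edgeR's quasi-likelihood test. It was followed by NCU00396, NCU01515, NCU04063 and vma-13, with unadjusted p of 0.298 to 0.311 by that test.

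The deviations that remained were small in every library. The median deviation from a gene's own mean was 0.02 in crossed replicate 1, -0.01 in crossed replicate 2, 0.00 in crossed replicate 3, -0.01 in uncrossed replicate 1 and 0.00 in uncrossed replicate 3, on the log2 scale. Crossed replicate 1 was the highest library in 55 of the 200 genes, and uncrossed replicate 1 the lowest in 55. A first principal component held 33.0% of the variance of the steady genes and a second nearly as much, 30.4%, so the direction of the first is loosely set. Scores on the first were 0.224, 0.310 and 0.268 in crossed replicates 1, 2 and 3, against -0.622 and -0.179 in uncrossed replicates 1 and 3, so it set the groups apart with uncrossed replicate 1 at the end. In the other 3229 genes the first component held 78.2%, again with uncrossed replicate 1 at the end. Its scores were -1.68, 17.3 and 16.5 in crossed replicates 1, 2 and 3, against -24.9 and -7.19 in uncrossed replicates 1 and 3. The groups did not overlap on it, but crossed replicate 1 lay nearer to uncrossed replicate 3 than to the other crossed libraries. The counts of crossed replicate 1 were likewise nearer to those of uncrossed replicate 3 (chi-square 78.5 per degree of freedom) than to those of crossed replicates 2 and 3 (355 and 291). Uncrossed replicate 1 was the farthest library in 59 of the 200 steady genes and in 1776 of the other 3229.

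**Figure D3:**
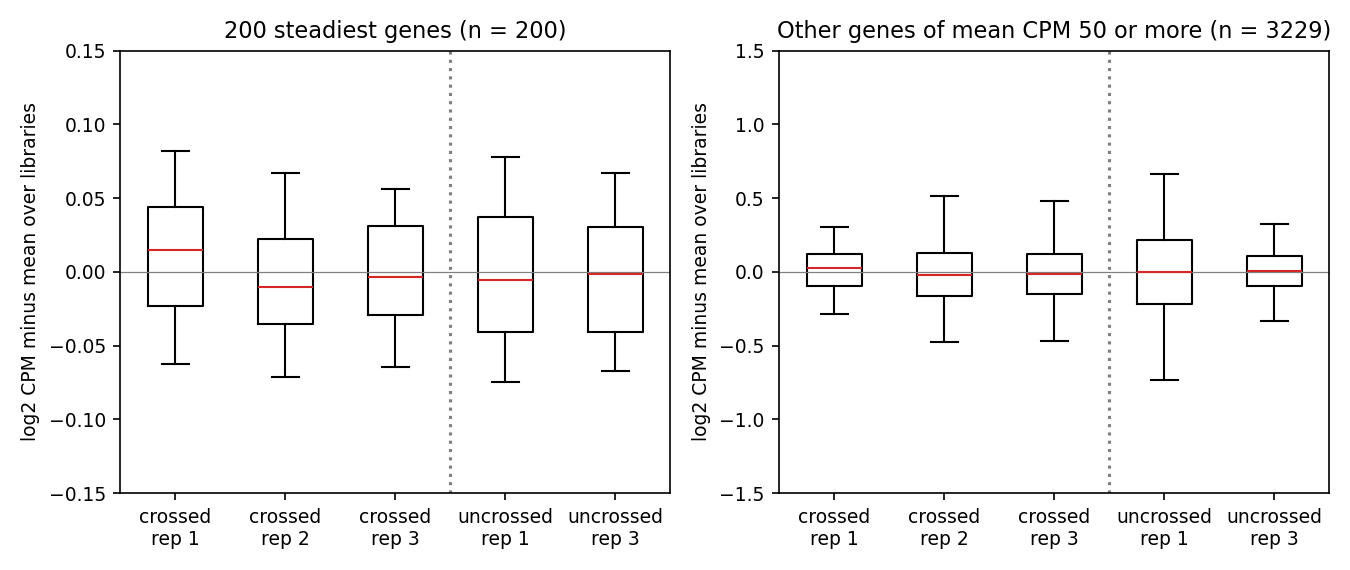
Log2 CPM minus the gene's mean over the 5 libraries (vertical) by library (horizontal), for the 200 steadiest genes on the left and the other 3229 genes of at least 50 CPM on the right, on vertical axes that differ 10-fold. Boxes span the quartiles with the median in red and whiskers run to the 5th and 95th percentiles; uncrossed replicate 1 has the longest box on the right, and on the left the boxes are of like length.

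Steadiness was relative to the scale. The 200 genes took 3.11, 2.45 and 2.51% of all counts in crossed replicates 1, 2 and 3, against 3.22 and 2.99% in uncrossed replicates 1 and 3. Of the counts outside ribosomal RNA genes they took 3.851, 3.715 and 3.776% in crossed libraries, against 3.752 and 3.805% in uncrossed libraries. The widest 95% Wilson interval of these shares spanned 0.0165 percentage points, for counting error only. As shares of all counts, all 200 genes were lower in crossed libraries, with a ratio of crossed to uncrossed means of 0.866 in the median (0.805 to 0.927). The other 3229 genes of at least 50 CPM had a median ratio of 0.851, with 2450 below 1, so this shift was not particular to the 200. As shares of the counts outside ribosomal RNA genes the median ratio of the 200 was 0.999 (0.932 to 1.07), and 101 of the 200 lay below 1. In the other genes it was 0.981, with 1692 of 3229 below 1. With plain library sizes over all counts the median SD was 0.191, and a choice by the same rule shared 0 genes with the 200. With plain library sizes and no ribosomal RNA genes, a setting chosen after seeing the data, the median SD was 0.0512 and 147 genes were shared.

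The authors' deposited table, which gives each gene a ratio per stage, put every one of the 200 genes lower in crossed cultures. In the authors' deposited table the median ratio of crossed to uncrossed was 0.868 (0.801 to 0.940), and the limits of the stages lay apart in all 200. For the other 3229 genes of at least 50 CPM that median was 0.857, with 2473 below 1 and limits apart in 89.7%. The shift was therefore not particular to the 200. Over all 9204 genes with an estimate, the limits in the authors' deposited table lay apart in 75.3%, and apart with crossed lower in 59.6%. The ratios of the authors' deposited table differed from the ratio of shares of all counts by 0.01 on the log2 scale in the median steady gene and by at most 0.05. The lowest ratio in the authors' deposited table among the 200 was that of NCU02508, at 0.801. That gene had 57.5, 61.4 and 59.7 CPM in crossed libraries, against 61.6 and 64.4 CPM in uncrossed libraries on the TMM scale.

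**Figure D4:**
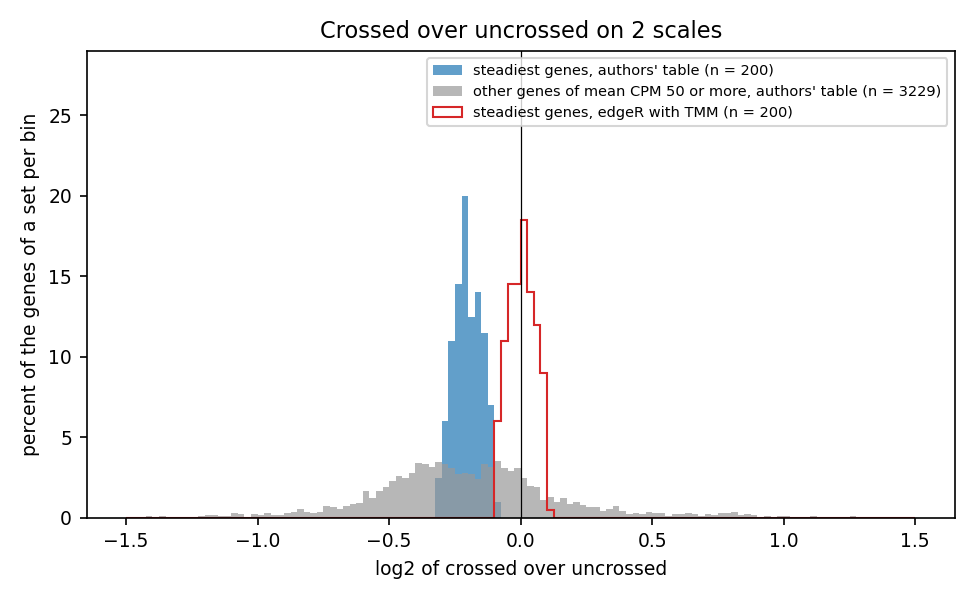
Percent of the genes of a set per bin (vertical) against log2 of crossed over uncrossed (horizontal), for the 200 steadiest genes in the authors' deposited table (blue) and in the edgeR fit with TMM scaling (red outline), and for the other 3229 genes of at least 50 CPM in the authors' deposited table (grey). The blue bars lie wholly below 0, around the median ratio of 0.868, and the red outline lies around 0.

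A library that had no part in the choice gives values that the choice did not fix. With each library left out in turn, the 200 steadiest genes of the other 4 libraries were chosen again and read in the library left out; TMM factors of all 5 libraries set the scale there. Their median absolute deviation from the mean of the other 4 libraries was 0.0827, 0.0576 and 0.0471 on the log2 scale in crossed replicates 1, 2 and 3. It was 0.142 and 0.0703 in uncrossed replicates 1 and 3. In the other genes of at least 50 CPM it was 0.131, 0.185 and 0.170 in the crossed replicates and 0.258 and 0.120 in the uncrossed ones. Counting error alone would give the chosen genes 0.0183 to 0.0214. In crossed replicate 3, 177 of the 200 lay within 0.1 of that mean, and in uncrossed replicate 1, 70 of 200 did. Crossed replicates 2 and 3 were the most alike pair, so leaving out either kept its near match in the choice. The low deviations in these 2 libraries are therefore no independent reading. The largest deviation was that of NCU17318, a ribosomal RNA gene, in crossed replicate 1 (-0.71), and in uncrossed replicate 1 it was that of NCU04194 (-0.68). Genes steady in 4 libraries were nearer to their mean in the fifth than other genes were, in the median, in each of the 5 libraries. No test was made of this difference.

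The membership moved with the libraries used. Without crossed replicate 1, 2 or 3, the new choice shared 127, 156 and 170 genes with the 200. Without uncrossed replicate 1 or 3 it shared 84 and 143. The 63 genes chosen in all 5 rounds were all among the 200 (31.5%). Every round used only libraries that had also set the 200, so this overlap was nearly fixed by construction. It is no independent sign that these genes are steady. The 63 genes included vma-3, rpt-5, rpt-4, hH2A, crf4-1, crf8-1, rgb-1, chs-3, hpt-1, uvs-6, cnb-1, aab-1, fba, stk-48, gh2-3, pkr1 and pold-1.

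**Figure D5:**
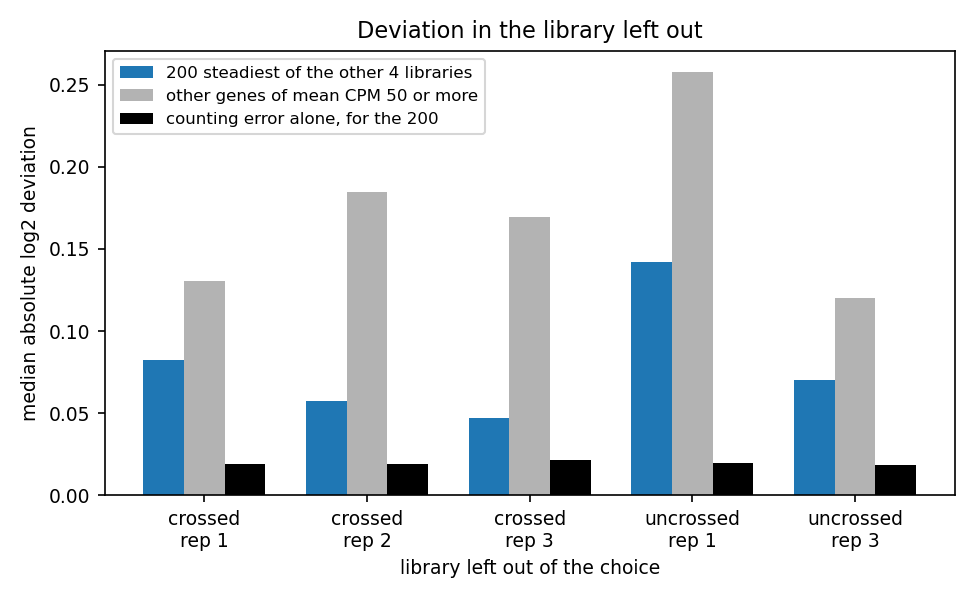
Median absolute log2 deviation (vertical) in a library that was left out of the choice (horizontal, crossed libraries first), for the 200 genes that were steadiest in the other 4 libraries (blue), for the other genes of at least 50 CPM (grey), and as counting error alone would give it for the 200 (black). The blue bar is below the grey one in each library and is highest in uncrossed replicate 1, at 0.142.

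Further features were set beside those of the other genes of at least 50 CPM, with no test. The choice did not use them, apart from the level, which had a floor of 50 CPM and enters the level per kilobase. All 200 were protein-coding, as were 3216 of the other 3229. Their gene length, introns included, had a median of 2752 bases (quartiles 2073 and 3669), against 2796 bases (2045 and 3898). Levels per kilobase of gene had a median of 35.8 CPM per kb, against 37.7 CPM per kb. The most abundant per kilobase were hH2A (1138 CPM per kb), hH2B, fba, NCU01328 and scon-3. Among 1406 pairs of genes of at least 50 CPM that are neighbours in the gene order, 8 pairs (0.569%) joined members of the 200. These were vma-16 with NCU09746, chs-3 with NCU04252, eat-2 with NCU01955, NCU09121 with NCU09122, NCU00879 with NCU00880, NCU04598 with NCU04600, NCU04104 with NCU04105 and NCU03888 with NCU03889. In 16 of the 200 genes, then, a neighbour was also a member. As 5.83% of the 3429 genes were members, some such pairs arise without any grouping in the gene order. These pairs are therefore no sign of grouping by themselves.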

How the data were processed

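The authors deposited whole-number counts per gene for 5 libraries, prepared from total RNA with a strand-keeping kit and sequenced from both ends, per the labels' protocols. CASAVA 1.8.2, fastp, HISAT2 2.1.0 and StringTie 1.3.3b are named in the submitters' processing notes. The sources used here name no genome build, annotation or use of strand. Counts worked back from coverage would not be independent reads, so counting errors are approximate. The authors deposited a second table with a ratio per stage and the distances to its limits, per the file headers, and the sources used here do not say how it was made.

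One row with more values than columns was left out. Of 10591 gene rows, 10590 matched the RefSeq table of assembly NC12, which gave symbols, lengths and gene order. edgeR 4.0.16 (R 4.3.3) filtered genes with filterByExpr, scaled by TMM and tested crossed against uncrossed over all genes (quasi-likelihood, group alone, two-sided, Benjamini-Hochberg, threshold 0.05). SEs of log2 fold changes came from the F statistic. The log2 CPM used a prior count of 2. DESeq2 1.42.0 and limma 3.58.1 were alternatives. The fit and the rule of choice were tested on simulated data. Where the labels give no more than a plate per replicate, p-values measure the spread between these plates.

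The members and lists were chosen with earlier results of these data known. Named were the 10 lowest SDs, the 5 on each side of the limit, the 5 highest levels per kilobase, the 5 smallest p, all members with a symbol, the reference list, and examples from lists built by symbol or synonym. Genes singled out beyond that rule (least steady list members, the extremes in the authors' table and in libraries left out, neighbouring pairs) were chosen after their values were seen. Overlapping and near-identical genes were not separated, so histone genes in particular may share reads.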

Additional observations from a re-analysis of the deposited data

How the results depend on the processing

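The number of genes past the threshold in edgeR was 4, and 3 to 5 with DESeq2 size factors, plain library sizes, no ribosomal RNA genes (with TMM or plain sizes), the other filters or limma-voom. DESeq2 called 1019. With the replicate number as a block it was 266, with 0 of the 200 among them. Numbers 1 and 3 occur in both groups, and number 2 only among crossed libraries, and no label says that a number marks a shared source. Deviations of same-numbered libraries correlated at 0.257 and 0.224 over all genes and at -0.129 and -0.0476 over the 200, and with only these pairs the data do not settle the pairing. With a library left out the count was 0 to 762. It was 0 on leaving out replicate 1 of the uncrossed group or replicate 2 or 3 of the crossed group (871 to 877 genes at an unadjusted p under 0.05), 192 without uncrossed replicate 3 and 762 without crossed replicate 1. A lone uncrossed library was then assumed to vary like the crossed ones. The cause was not tested.

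The median log2 fold change of the 200 was 0.00 and lay within their median SD of it in all alternatives but plain library sizes (-0.21, where that of all tested genes was -0.21); with a library left out it was -0.0042 to 0.0126. Their median SD was 0.191 with plain library sizes and 0.0461 to 0.0504 with a library left out. The genes shared with the 200 numbered 0 with plain library sizes, 132 at a floor of 20 CPM, 87 at 100 CPM (the members above it), 72 by the median absolute deviation, 110 by the within-group variance and 84 to 170 with a library left out. The other settings shared 147 to 200; those with plain sizes without ribosomal RNA genes and with SDs of log2 ratios (166 shared) were added after seeing the data. Of 74 named genes, all 74 had a higher SD with plain library sizes, and none moved by more than the standard error of its SD with the other filters, DESeq2 size factors or other prior counts. By that measure 17 and 4 moved without uncrossed replicate 1 or 3, all to a lower SD. Without crossed replicate 1, 2 or 3, 6, 5 and 1 moved, also to a lower SD. With plain sizes and no ribosomal RNA genes 6 moved to a higher SD. Of the 200, 81 had an SD over 2 times counting error and 11 an SD below it, and for those 11 an order is not detectable at this depth. For the rest the order is loosely set as well. The standard error used for the median SD of 0.0505 was 0.0179, and the quartiles of the 200 SDs were 0.0422 and 0.0566.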
